A study of Mus musculus with 9 samples.

Results

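The 6 core thermogenic genes of brown fat described here were Ucp1, Ppargc1a, Ppargc1b, Dio2, Cidea and Elovl3. They were chosen by name, with earlier results of these data known, out of 16937 genes listed in at least 1 of the deposited tables. All 6 were listed in all 3 tables. RNA was sequenced from brown adipose tissue of 9 mice, 3 in each of 3 groups. WT Cold mice were wild type and spent 8 h at 4 °C. GCN2 KO Cold mice were, by their label, whole-body knockouts of the kinase GCN2 and spent the same 8 h at 4 °C. The title of 1 of these 3 samples names both genotypes and no temperature, and it was placed by its other labels, which give GCN2 KO and 4 °C. WT RT mice were wild type and stayed at 23 °C. All mice were adults of 12 to 23 wk on the C57Bl/6J background, backcrossed for 10 generations, single-housed for 5 d beforehand and fed freely, and per the study the groups held both sexes. A whole-body knockout is not specific to brown fat. No GCN2 KO group at 23 °C was among the samples, so the difference in cold response between genotypes could not be tested.

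Brown adipocytes make heat by letting protons flow back across the inner mitochondrial membrane without making ATP, and Ucp1 encodes the carrier protein that lets them pass. Cold reaches these cells as noradrenaline from sympathetic nerves, which raises cAMP and activates protein kinase A. Ppargc1a and Ppargc1b encode PGC-1α and PGC-1β, coactivators of genes for mitochondria and fat oxidation. Dio2 encodes the deiodinase that turns thyroxine into the active hormone T3 inside the cell, Cidea a lipid droplet protein, and Elovl3 an elongase of very long chain fatty acids. Cidea and Elovl3 are widely used as markers of brown fat.

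Ucp1, Dio2 and Ppargc1a are textbook targets of the cAMP pathway, and the 250 bases before their start sites are shown. These sequences are from RefSeq on GRCm38.p6 and were matched by gene symbol, which found these 3 of the 6 genes and not Elovl3, Cidea or Ppargc1b. The submitters' processing notes name GRCm39. Each is written 5′ to 3′ along the gene. Capitals mark the core TGACG of the cAMP response element on either strand, which reads CGTCA on the opposite strand, or the full element TGACGTCA, which contains that core on both strands. The Ucp1 window is chr8:83290098-83290347 on the plus strand, the Dio2 window is chr12:90739039-90739288 on the minus strand, and the Ppargc1a window, before its most upstream annotated start, is chr5:51567726-51567975 on the minus strand.
Ucp1: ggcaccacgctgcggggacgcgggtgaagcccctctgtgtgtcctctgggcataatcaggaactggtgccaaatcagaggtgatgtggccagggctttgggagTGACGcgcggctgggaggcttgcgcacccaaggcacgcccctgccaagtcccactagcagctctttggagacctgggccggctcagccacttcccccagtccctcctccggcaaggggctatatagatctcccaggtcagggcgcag
Dio2: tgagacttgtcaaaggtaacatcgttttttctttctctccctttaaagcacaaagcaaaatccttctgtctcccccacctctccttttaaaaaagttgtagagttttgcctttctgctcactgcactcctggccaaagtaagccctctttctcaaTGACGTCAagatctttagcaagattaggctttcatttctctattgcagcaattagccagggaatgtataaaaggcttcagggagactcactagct
Ppargc1a: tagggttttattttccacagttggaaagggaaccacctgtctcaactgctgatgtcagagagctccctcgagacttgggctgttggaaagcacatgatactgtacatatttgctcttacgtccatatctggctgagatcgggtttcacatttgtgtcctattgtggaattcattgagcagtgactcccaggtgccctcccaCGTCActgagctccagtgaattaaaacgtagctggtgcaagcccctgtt
The core TGACG lay 147 to 143 bases before the start of Ucp1 and, on the opposite strand, 49 to 45 bases before that of Ppargc1a. The full element lay 95 to 88 bases before the RefSeq start of Dio2, which is 600 bases upstream of the start of the GENCODE gene model whose coordinates are given below. For Ucp1 and Ppargc1a these starts differ by at most 4 bases. Of 32851 mouse promoter windows of the same length, 17.8% held TGACG and 1.55% held TGACGTCA on either strand. The nuclear receptor core motif AGGTCA, searched on both strands, lay 14 to 9 bases before the start of Ucp1 and was found in 14.0% of all windows. These matches describe letters in a window and are not evidence of binding.

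For each comparison, the deposited table held the reads of each gene divided by a size factor of the library. The whole reads could be recovered for 100% of values, and they are given here as CPM, reads per 1000000 reads on all listed genes, so that all 9 libraries can be set side by side. The libraries held between 27058799 and 30768064 reads. The columns carry no mouse numbers, and the libraries of a group are called A, B and C in the order of their codes. WT RT codes begin with other letters than the cold codes, for a reason the labels do not give, so temperature and whatever the letters stand for cannot be told apart. Library C of WT Cold and library C of GCN2 KO Cold had 131 and 128 CPM of Xist and 7.02 and 10.5 CPM of the Y-linked gene Ddx3y, against 11.2 to 43.5 and 84.8 to 144 CPM in the other 7 libraries. These transcripts mark female and male tissue. Neither pattern was clean. Both libraries C held some Ddx3y and some of the Y-linked gene Eif2s3y (7.4 and 8.06 CPM, against 69.6 to 92 CPM in the other 7). The other 7 libraries held some Xist. The reason for this was not tested. All 3 WT RT libraries had the high Ddx3y and low Xist of male tissue, against the description of groups of both sexes, so among these libraries only the cold groups showed both patterns. Results were also computed without both cold libraries C. Mitochondrial transcripts made up 17.9 to 18.5% of reads in WT RT, 19.9 to 21.9% in WT Cold and 22.7 to 24.4% in GCN2 KO Cold.

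Eif2ak4, the gene for GCN2, had 11.1, 12.6 and 13 CPM in WT RT, 6.46, 8.31 and 8.34 CPM in WT Cold, and 11.9, 12.7 and 11.8 CPM in GCN2 KO Cold (libraries A, B and C). The targeted transcript was thus not lower in the libraries of that label, and gene totals do not show which exons were read. The group is therefore called the GCN2 KO Cold-labelled libraries below.

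Brown adipocyte markers were present in all 9 libraries. None of the 12 markers, which include Adipoq, Cox7a1, Cox8b and Zic1, was at 0 in any library. Their summed level was 16175 to 16595 CPM in WT RT, 17018 to 17812 CPM in WT Cold and 19125 to 19817 CPM in the GCN2 KO Cold-labelled libraries, so the ranges did not overlap. Fabp4, a fatty acid binding protein, made up most of each sum, with means of 10296, 11427 and 13329 CPM in the same order of groups. Of the 12 markers, 4 had higher mean CPM in the GCN2 KO Cold-labelled libraries than in WT Cold, namely Fabp4, Cox7a1, Cox8b and Prdm16, and the other 8 had lower means. None of the 12 passed the test between the cold groups, at an adjusted p that 0.405% of all genes passed. That test uses the deposited normalization, and CPM shifts the median of all genes by -0.12 against it. On the deposited normalization the median log2 fold change of the 12 was 0.07. There, 3 were higher and 0 lower than WT Cold in every library, as 11.3% and 10.7% of all genes were. In WT Cold against WT RT, 4 were higher and 2 lower at the adjusted p, and 1 was called, the potassium channel gene Kcnk3 (log2 fold change 1.22, limma adjusted p = 0.00041). Of all genes, 13.6% were higher and 14.1% lower at that adjusted p, and 2.99% were called higher. In whole tissue, fewer cells of a type and less RNA per cell cannot be told apart.

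In WT mice, Dio2, Ppargc1a, Ucp1 and Elovl3 were higher in the cold, whereas Cidea and Ppargc1b did not pass the test. A gene was called when limma gave a Benjamini-Hochberg adjusted p under 0.05 over all genes of the table and an absolute log2 fold change over 1. Fold changes are differences of log2(normalized count + 1), where the normalized count is the deposited value, and this scale understates changes of low genes. By this rule 4 of the 6 genes were called higher and none lower, against 2.99% of all 16679 genes called higher and 5.15% called lower. The 6 genes are too few, and were chosen with earlier results of these data known, for this share to be read as a test.

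Ucp1 was the most abundant of the 6 per length of exon in every library. On chromosome 8 of GRCm38 (83290352 to 83298452), it had 3592, 5273 and 4763 CPM in WT RT and 8864, 8995 and 7970 CPM in WT Cold. The groups did not overlap, and the WT RT libraries were more spread (coefficient of variation 19.0%) than the WT Cold libraries (6.48%). The log2 fold change was 1.02 (SE 0.16, 95% confidence interval 0.66 to 1.39, limma adjusted p = 0.00344), a 2.03-fold rise. The estimate sat close to the fold threshold, and it fell to 0.94 when the libraries were scaled as CPM, 0.85 without WT RT library A and 0.99 without WT Cold library B, each under the threshold while the adjusted p stayed below 0.05. Ucp1 ranked 13 among 16806 genes with a known exon length in WT RT and 11 among 16823 in WT Cold by CPM per kilobase of exon (RPKM), a level per length. It took 0.454% of all reads in WT RT and 0.861% in WT Cold.

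Of the related coactivators, Ppargc1a was called and Ppargc1b did not pass, and the difference between their responses was not tested. Ppargc1a, on chromosome 5 (51454250 to 51567726), had 35.5, 43.6 and 57.5 CPM in WT RT and 398, 214 and 240 CPM in WT Cold. Every WT Cold library was well above every WT RT library, with library A highest. The log2 fold change was 2.70 (SE 0.26, 95% confidence interval 2.11 to 3.29, limma adjusted p = 0.00054), a 6.50-fold rise. Ppargc1b, on chromosome 18 (61298136 to 61400431), had 41.9, 34.7 and 45.8 CPM in WT RT and 38.8, 38.5 and 53.1 CPM in WT Cold. The groups overlapped, and the log2 fold change of 0.17 (SE 0.18, 95% confidence interval -0.24 to 0.58, limma adjusted p = 0.506) leaves room for a modest difference in either direction. Without WT Cold library C it was -0.0013.

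Set side by side per length, the order of these coactivators turned between the temperatures. The ratio of Ppargc1a to Ppargc1b in RPKM was 0.513, 0.76 and 0.759 in the WT RT libraries A, B and C and 6.21, 3.36 and 2.74 in WT Cold. Per length, all WT RT libraries thus had less Ppargc1a than Ppargc1b, and all WT Cold libraries had more. The order in WT RT depends on the exon lengths used, 6.592 kb for Ppargc1a and 3.99 kb for Ppargc1b. In CPM, Ppargc1a was below Ppargc1b only in WT RT library A (35.5 against 41.9). It was above in WT RT libraries B (43.6 against 34.7) and C (57.5 against 45.8). Ppargc1a made up 37.0% ± 4.81 (SD, n = 3) of the summed RPKM of the PGC-1 family in WT RT and 76.3% ± 6.63 (SD, n = 3) in WT Cold, the third member being Pprc1, at 0.98 to 2.01 RPKM over the 9 libraries.

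Dio2 had the largest log2 fold change of the 6. On chromosome 12 (90724552 to 90738438), it had 70.2, 75.2 and 108 CPM in WT RT and 1244, 1064 and 690 CPM in WT Cold. The lowest WT Cold library, C, was still several times the highest WT RT library. Its log2 fold change was 3.63 (SE 0.24, 95% confidence interval 3.08 to 4.19, limma adjusted p = 0.000138), a 12.4-fold rise and the 9th largest of 16679 genes. In RPKM, Dio2 moved from rank 2630 among all genes in WT RT to rank 293 in WT Cold. It already outweighed Dio1, the deiodinase of liver and kidney, in WT RT, at 83.9% ± 4.24 (SD, n = 3) of the RPKM of the pair, and reached 98.3% ± 1.24 (SD, n = 3) in WT Cold.

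Of the lipid genes, Elovl3 was called and Cidea did not pass. Cidea, on chromosome 18 (67343604 to 67367785), had 1756, 1647 and 1606 CPM in WT RT and 1679, 1743 and 1664 CPM in WT Cold, which overlapped. As normalized counts of the table they lay just apart, the lowest WT Cold library at 49930 and the highest WT RT library at 49547. Its log2 fold change was 0.11 (SE 0.08, 95% confidence interval -0.07 to 0.29, limma adjusted p = 0.341). It was among the steadiest of the 6 between libraries, with a coefficient of variation of 2.23 to 4.64% within groups. Elovl3, on chromosome 19 (46131897 to 46135694), had 219, 427 and 425 CPM in WT RT and 584, 761 and 859 CPM in WT Cold. Library A was the lowest of each group, and the groups did not overlap. The log2 fold change was 1.17 (SE 0.28, 95% confidence interval 0.52 to 1.82, limma adjusted p = 0.0184), a 2.25-fold rise. The call was lost without WT Cold library B (1.14, limma adjusted p = 0.0624), and without WT RT library A the log2 fold change was 0.84, under the fold threshold.

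**Figure D1:**
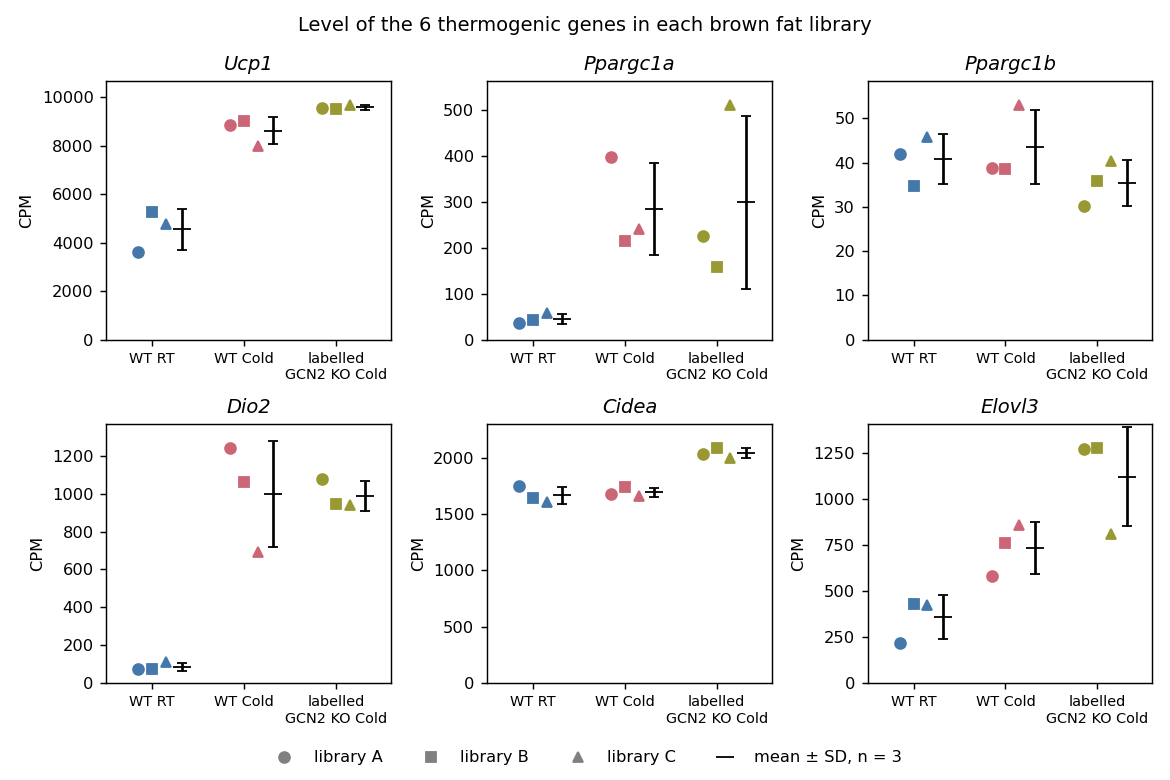
Each panel shows 1 gene, with CPM on the y axis from 0 and the 3 groups on the x axis. Symbols are single libraries (A circle, B square, C triangle), and bars are the mean ± SD of 3 libraries. Dio2 and Ppargc1a of both cold groups sit far above WT RT, Ucp1 and Elovl3 moderately above it, and Ppargc1b of the 3 groups overlaps.

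In the GCN2 KO Cold-labelled libraries, none of the 6 genes was called against WT Cold. At the same rule, 0.257% of 16312 genes were called higher or lower. The 3 genes Ucp1, Cidea and Elovl3 were higher in every GCN2 KO Cold-labelled library than in every WT Cold library on the scale of the table, a pattern that 11.3% of all genes had, and none of the 6 was lower in every library, as 10.7% of all genes were. The same 3 genes had an unadjusted limma p under 0.05, which 15.3% of all genes had in either direction. DESeq2, the tool of the study's methods, gave 2 of them, Cidea and Elovl3, an adjusted p under 0.05, which it gave to 3.22% of genes, but neither passed the fold threshold.

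Cidea had 2041, 2093 and 2002 CPM in the GCN2 KO Cold-labelled libraries, above all 6 wild-type libraries, whose highest value was 1756 CPM. Against WT Cold its log2 fold change was 0.39 (SE 0.08, 95% confidence interval 0.21 to 0.57), a 1.31-fold difference, with an adjusted p of 0.096 from limma, 0.0868 from edgeR and 0.00113 from DESeq2. With all 3 groups in a single limma fit the adjusted p was 0.0323. The size depended on the scale, at 0.27 as CPM and 0.29 when libraries were scaled to the 12 brown adipocyte markers, an alternative chosen after seeing the data.

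Elovl3 had 1274, 1281 and 812 CPM in the GCN2 KO Cold-labelled libraries. Libraries A and B were above all WT Cold libraries, whereas C, at 812 CPM, was below the highest WT Cold library, which had 859 CPM. On the table's own normalization library C stayed just above, at 24025 against 23798 normalized counts, so the separation counted above rests on the scaling. The log2 fold change was 0.72 (SE 0.22, 95% confidence interval 0.21 to 1.22), with an adjusted p of 0.189 from limma, 0.184 from edgeR and 0.0208 from DESeq2. When both cold libraries C, which differ from the rest in Xist and Ddx3y, were left out, it was 1.07 with a limma adjusted p of 0.0356, which passed both thresholds and made Elovl3 the only gene of the 6 called. This alternative was chosen after seeing the data and compares 2 libraries with 2.

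Ucp1 had 9547, 9494 and 9693 CPM in the GCN2 KO Cold-labelled libraries, the narrowest spread of any gene and group here, with a coefficient of variation of 1.08%. Its log2 fold change against WT Cold was 0.27 (SE 0.11, 95% confidence interval 0.03 to 0.52), with an adjusted p of 0.283 from limma and 0.08 from DESeq2. The summed brown adipocyte markers, mostly Fabp4, were higher in the same libraries, although none of the 12 passed. Scaled to the geometric mean of the 12, in which each marker has equal weight, the Ucp1 difference was 0.17 (limma adjusted p = 0.467). The part of the markers' shift in the higher levels of Ucp1, Cidea and Elovl3 was not tested beyond this scaling.

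The remaining 3 genes overlapped between the cold groups. Dio2 had 1079, 948 and 939 CPM in the GCN2 KO Cold-labelled libraries, inside the range of WT Cold. Its log2 fold change was 0.14 (SE 0.19, 95% confidence interval -0.30 to 0.58, limma adjusted p = 0.776), and without WT Cold library C, the lowest, it was -0.09. Ppargc1a had 226, 158 and 512 CPM, where library C was the highest of all 9 libraries and B the lowest of the cold libraries. With that spread (coefficient of variation 62.9%) the interval was wide, at a log2 fold change of 0.06 (SE 0.42, 95% confidence interval -0.92 to 1.04, limma adjusted p = 0.962), which turned to -0.42 without library C of that group and to -0.05 as CPM. Ppargc1b had 30.1, 35.8 and 40.4 CPM and a log2 fold change of -0.17 (SE 0.17, 95% confidence interval -0.57 to 0.23, limma adjusted p = 0.69). A difference of Ppargc1a by nearly the fold threshold in either direction could not have been told from the spread between these libraries.

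Set against WT RT, the GCN2 KO Cold-labelled libraries had the same 4 genes called as WT Cold, Ucp1, Ppargc1a, Dio2 and Elovl3, all higher, where 3.01% of 16560 genes were called higher and 7.58% lower. Both comparisons use the same WT RT libraries, so they are given side by side and are not independent. The log2 fold changes were 1.30 for Ucp1 (limma adjusted p = 0.00101), 2.77 for Ppargc1a (0.0014) and 3.77 for Dio2 (2.13e-05) by the same test. Elovl3 differed by 1.89 (SE 0.28, limma adjusted p = 0.00182), a 3.71-fold level, against 1.17 in WT Cold. Cidea passed the adjusted p without the fold threshold, at 0.50 (SE 0.09, limma adjusted p = 0.00349), which 16.4% of genes did in the higher direction. As CPM this difference was 0.29 (limma adjusted p = 0.0181), and scaled to brown adipocyte markers it was 0.28 and no longer passed (limma adjusted p = 0.105). Ppargc1b had a log2 fold change of -0.00074 (95% confidence interval -0.35 to 0.35, limma adjusted p = 0.998). The ratio of Ppargc1a to Ppargc1b in RPKM was 4.55, 2.68 and 7.67 in these libraries, again above all WT RT libraries.

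**Figure D2:**
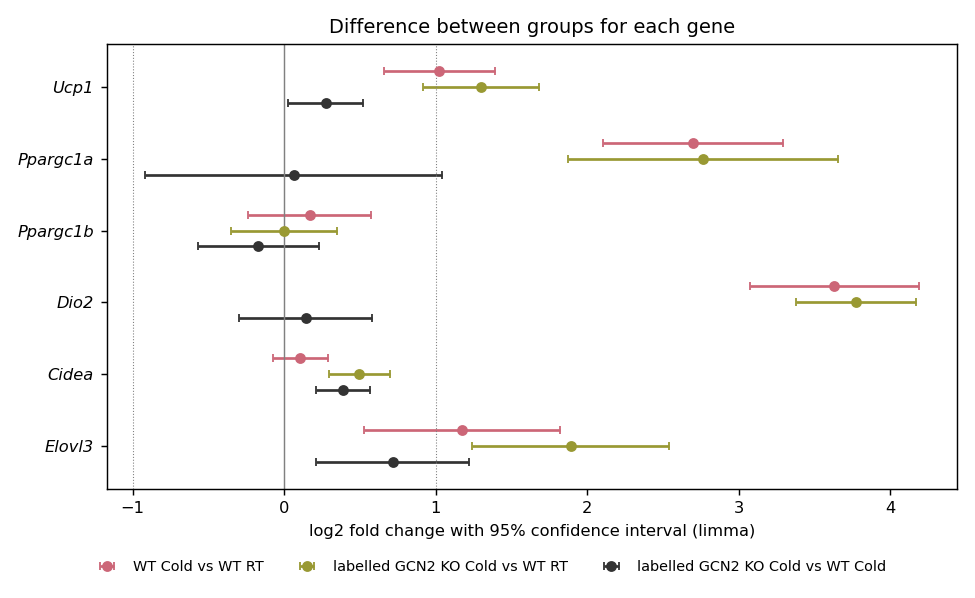
The x axis is the log2 fold change with its 95% confidence interval from limma, and each row is 1 gene in the 3 comparisons, each of 3 libraries against 3. Dotted lines mark the fold threshold of 1 in either direction. The intervals against WT RT lie clear of 0 for Dio2, Ppargc1a, Ucp1 and Elovl3 in both cold groups, and the black points, which compare the cold groups, lie between -0.17 and 0.72.

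The order of the 3 groups can be read per gene from these tests. For Dio2 and Ppargc1a, WT RT was lowest and the cold groups did not differ beyond their spread. Ucp1 and Elovl3 followed the order WT RT, WT Cold, GCN2 KO Cold-labelled libraries by their means, where only the step from WT RT passed both thresholds. For Cidea, WT RT and WT Cold did not differ beyond their spread and the GCN2 KO Cold-labelled libraries were above WT RT at the adjusted p alone. For Ppargc1b no step passed.

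Per length, the share of a member in its protein family varied between families and groups. Ucp1 made up 97.6% ± 0.332 (SD, n = 3) of the RPKM of Ucp1, Ucp2 and Ucp3 in WT RT. In WT Cold it made up 98.7% ± 0.293 (SD, n = 3), and in the GCN2 KO Cold-labelled libraries 98.9% ± 0.0608 (SD, n = 3). Ucp3, the muscle-type uncoupling protein, came next at 43.7 to 58.8 RPKM, against 2196 to 5925 RPKM for Ucp1. Of the elongases Elovl1 to Elovl7, Elovl3 made up 44.2% ± 8.34 (SD, n = 3) in WT RT. Its share was 71.0% ± 4.84 (SD, n = 3) for WT Cold, and for the GCN2 KO Cold-labelled libraries 77.8% ± 4.82 (SD, n = 3). Elovl6, which lengthens saturated C16 acids, came second to Elovl3 in 8 of 9 libraries and was above it in WT RT library A, at 161 against 111 RPKM. Cidea made up 76.9% ± 1.86 (SD, n = 3) of the CIDE family in WT RT, with 71.8% ± 2.18 (SD, n = 3) for WT Cold. In the GCN2 KO Cold-labelled libraries it made up 79.8% ± 4.67 (SD, n = 3), a range that overlapped that of WT RT. Its relative Cidec, the droplet protein of white fat, was 0.50 higher in WT Cold than WT RT on the log2 scale (limma adjusted p = 0.022).

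**Figure D3:**
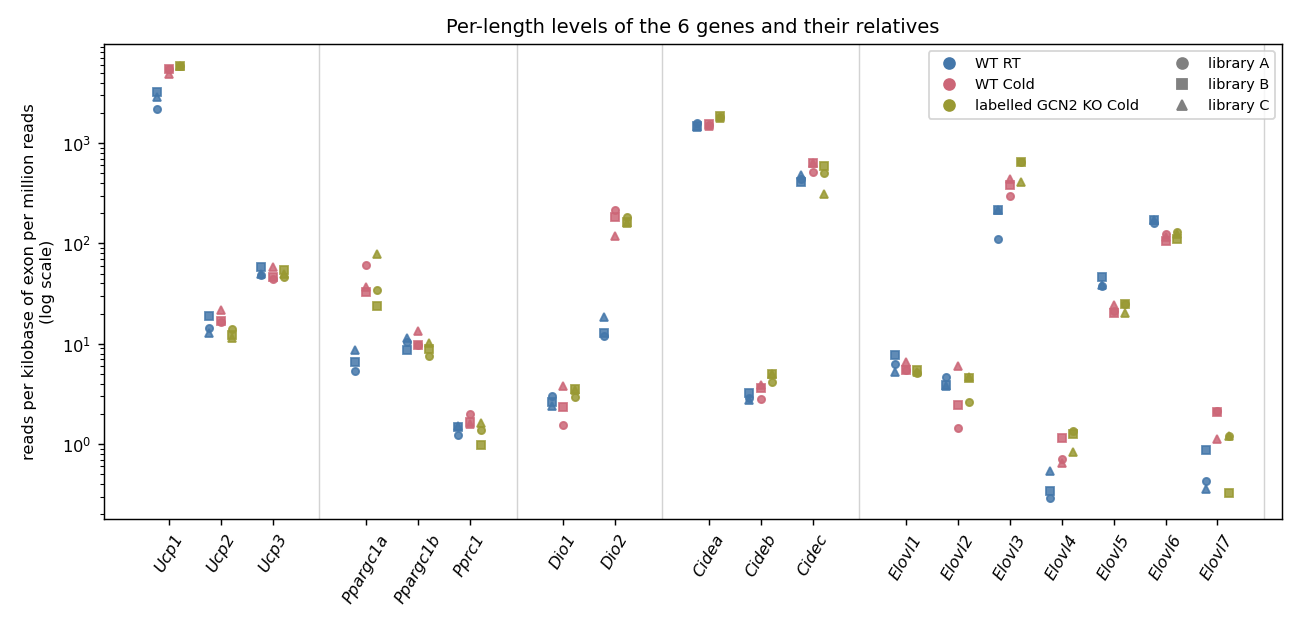
The y axis is RPKM on a log scale, and each column is 1 gene, grouped by family. Colours are groups and symbols are libraries, with no summary drawn. Ucp1 lies more than 10-fold above Ucp2 and Ucp3 in all libraries. Per length, but not in CPM, Ppargc1a lies below Ppargc1b in all WT RT libraries, and it lies above it in the cold groups.

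Among 29 partners of these genes, nuclear receptors, C/EBP factors and coactivators that act with PGC-1α or on the Ucp1 enhancer, 9 were higher and 3 lower in WT Cold than WT RT at the adjusted p, and 2 were called. Over all genes 13.6% were higher and 14.1% lower at that adjusted p. The median log2 fold change of the list was 0.23, against 0.0029 for all genes. The called genes were Esrrb, which was low in level, and Cebpd. Esrrb, which encodes the orphan nuclear receptor ERRβ, had 1.15, 1.53 and 2.86 CPM in WT RT and 12, 10.7 and 8.23 CPM in WT Cold (log2 fold change 2.63, SE 0.34, limma adjusted p = 0.0018). Cebpd, an early adipogenic factor, had 15.4, 13 and 13.7 CPM in WT RT and 30.9, 25.7 and 35.5 CPM in WT Cold (log2 fold change 1.20, SE 0.15, limma adjusted p = 0.0013). The relatives of Cebpd went in opposite directions, Cebpb 0.71 (limma adjusted p = 0.0018) and Cebpa, a factor of mature adipocytes, -0.98 (limma adjusted p = 0.0019). Esrra rose by 0.69 and Ppara, a receptor for fatty acids, fell by 0.51 on the log2 scale. Against WT Cold, none of the 29 passed, where 0.405% of all genes did, in the GCN2 KO Cold-labelled libraries, with a median of -0.09. There, 6 of the 29 were lower and 1 higher in every library than in every WT Cold library, as 10.7% and 11.3% of all genes were. The widest difference was that of Irf4, a factor that works with PGC-1α in thermogenesis, at -0.75 with an SE of 0.90. It rests on WT Cold library C, which had 121 CPM where the other cold libraries had 9.5 to 15.4 CPM.

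Thyroid hormone handling, the setting in which Dio2 acts, had 13 of 15 listed genes in the tables. In WT Cold, 3 were higher and 2 lower than in WT RT at the adjusted p, with a median log2 fold change of 0.08, where 13.6% of all genes were higher and 14.1% lower. Sephs2, which makes the selenium donor that deiodinases need, rose by 1.06 (SE 0.10, limma adjusted p = 0.0006), and Usp33, which removes ubiquitin from Dio2, by 0.78. The receptor gene Thra, which is also among the 29 partners, fell by 0.69. Thrsp, a thyroid hormone responsive gene linked to fatty acid synthesis, had 2681, 2925 and 2992 CPM in WT RT and 468, 388 and 427 CPM in WT Cold, for a difference of -2.66 on the log2 scale (SE 0.10, limma adjusted p = 2.12e-05). It thus fell where Dio2 rose. In the GCN2 KO Cold-labelled libraries it had 768, 681 and 601 CPM, above every WT Cold library and below every WT RT library. That difference from WT Cold, 0.79 on the log2 scale, was the only one of the list to pass (limma adjusted p = 0.0439), under the fold threshold.

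Of 12 further genes of fatty acid elongation, the pathway of Elovl3, 4 were higher and 4 lower in WT Cold than WT RT at the adjusted p, where 13.6% and 14.1% of all genes were. Of these, 3 were called higher and 1 lower, against 2.99% and 5.15% of all genes. Hacd2, a dehydratase of the elongation cycle, had 216, 229 and 235 CPM in WT RT and 595, 664 and 552 CPM in WT Cold (log2 fold change 1.5, SE 0.09, limma adjusted p = 0.000138). The groups were far apart, and the GCN2 KO Cold-labelled libraries, at 676, 680 and 704 CPM, lay above both. Elovl7 (1.80) and Elovl4 (1.15) were called higher and Hacd4 (-1.42) lower, all under 10 CPM in every library. Tecr, the reductase of the last step, fell by 0.67 and Elovl5 and Elovl6 by 0.81 and 0.46. None of the 12 passed between the cold groups, where the median was 0.16 and Tecr came nearest at 0.51 (limma adjusted p = 0.0646).

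Of 9 lipid droplet proteins listed around Cidea, 2 were higher (Fitm2 at 0.67 and Cidec at 0.50) and 2 lower (Plin3 at -0.48 and Plin1 at -0.34) in WT Cold at the adjusted p, against 13.6% and 14.1% of all genes, with none called. Between the cold groups none passed, and the widest differences were Cideb at 0.57 and Plin4 at -0.52. Of the 7 carriers related to Ucp1, Slc25a5, an adenine nucleotide carrier, was the only one to pass in WT Cold against WT RT, at 0.29 (limma adjusted p = 0.0162). Ucp2 and Ucp3 had log2 fold changes of 0.35 and 0.003 that did not pass. None of the 7 passed between the cold groups.

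**Figure D4:**
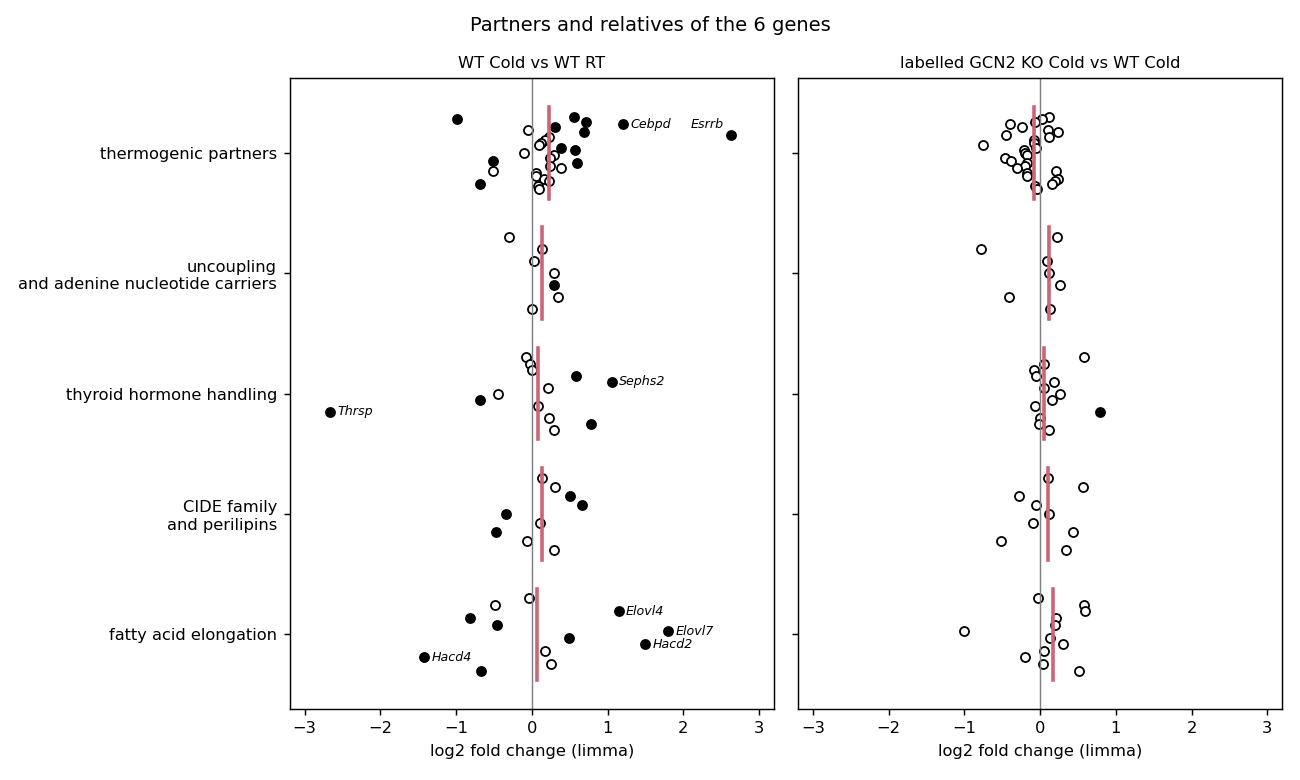
The x axis is the log2 fold change from limma, and each point is 1 gene of 5 lists, in WT Cold against WT RT at left and in the GCN2 KO Cold-labelled libraries against WT Cold at right, each of 3 libraries against 3. Filled points have an adjusted p under 0.05, names are given for genes called, and red lines are list medians. Filled points lie on both sides of 0 at left in all lists but the carriers, and at right only Thrsp is filled.

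Against WT RT, the GCN2 KO Cold-labelled libraries gave a similar set of list genes called. These were Esrrb (2.18), Sephs2 (1.23), Hacd2 (1.80) and Elovl4 (1.74) higher, and Thrsp (-1.87) and Hacd4 (-1.62) lower. Elovl7 (0.79) and Cebpd (0.81) did not pass the fold threshold there, and Elovl7 did not pass the adjusted p either (limma adjusted p = 0.277). The levels of Elovl7 and Cebpd in the cold groups, compared directly, did not pass the test (limma adjusted p = 0.415 for Elovl7 and 0.241 for Cebpd).

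Markers of other cell types moved with the groups, and none of the markers listed was at 0 in any library. The summed level of skeletal muscle markers, 16 of 18 in all tables, was 1221 to 1663 CPM in WT RT, 1302 to 2252 CPM in WT Cold and 441 to 999 CPM in the GCN2 KO Cold-labelled libraries. In those libraries 15 of the 16 were lower than in WT Cold in every library, as 10.7% of all genes were, and 1, Sln, was called, as 0.257% of all genes were. Against WT RT, 13 of the 16 were called lower in those libraries, as 7.58% of all genes were. Macrophage and monocyte markers (8 of 8) summed to 321 to 481 CPM in WT RT, 181 to 280 CPM in WT Cold and 127 to 202 CPM in the GCN2 KO Cold-labelled libraries. Against WT RT, 2 of the 8 were called lower in WT Cold, as 5.15% of all genes were. In the GCN2 KO Cold-labelled libraries 6 were, as 7.58% of all genes were. Fibroblast and preadipocyte markers (7 of 7) went from 1175 to 1377 CPM in WT RT to 895 to 1004 CPM in WT Cold and 577 to 768 CPM in the GCN2 KO Cold-labelled libraries. Erythroid markers (5 of 5) were 260 to 345 CPM in WT RT and 572 to 2279 CPM in the cold libraries. White adipocyte markers (5 of 6) were 214 to 221 CPM in WT RT, 162 to 199 CPM in WT Cold and 89.8 to 157 CPM in the GCN2 KO Cold-labelled libraries, with no overlap. Endothelial markers (7 of 7) were 557 to 611 CPM in WT RT, 636 to 770 CPM in WT Cold and 510 to 617 CPM in the GCN2 KO Cold-labelled libraries. Lymphocyte markers (8 of 8) were 25.4 to 54.1 CPM in WT RT and 11.9 to 17.5 CPM in the cold libraries. Most of each WT RT sum was Ptprc, at 24.7, 42.8 and 17.5 CPM, against 4.95 to 8.73 CPM in the cold libraries. Ptprc was called lower in WT Cold against WT RT, as 5.15% of all genes were, and the other 7 did not pass. Schwann cell and nerve markers (5 of 6) overlapped between the groups, at 86.8 to 143 CPM. The part of these shifts in the levels of the 6 genes was not tested, apart from the scaling to brown adipocyte markers, under which Dio2, Ppargc1a and Elovl3 kept their calls in WT Cold against WT RT and Ucp1, at 0.90, was under the fold threshold. The markers used for that scaling themselves moved both ways in this comparison, as given above.

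**Figure D5:**
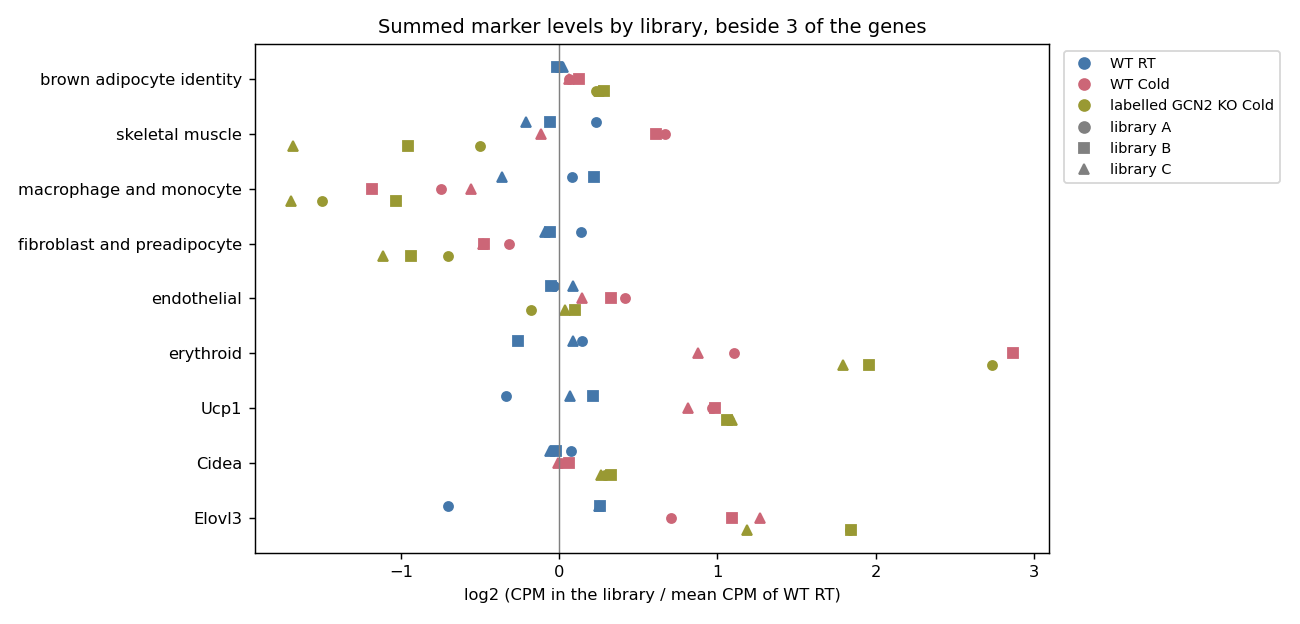
The x axis is log2 of the CPM in a library over the mean of the 3 WT RT libraries, for the summed markers of 6 cell types and for 3 of the genes. Colours are groups and symbols are libraries, with no summary drawn. The GCN2 KO Cold-labelled libraries lie highest for brown adipocyte markers and Cidea and lowest for skeletal muscle and fibroblast markers.

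The genes most like each member across the 9 libraries were found among 13039 genes by the root mean square difference of log2(CPM + 1) relative to the WT RT mean. For Ucp1 they were Zfp672 (0.116), Aspa (0.144) and Atg4d (0.146). For Dio2 they were Mfsd2a (0.248), Cend1 (0.316) and Acot5 (0.622), and for Ppargc1a they were Sgk2 (0.406), Gk (0.462) and Nr4a3 (0.468). Mfsd2a, a lipid transporter, had a log2 fold change of 3.68 in WT Cold, beside 3.63 for Dio2. Elovl3 was most like Slc43a2 (0.31), Cnnm2 (0.314) and Hsd17b7 (0.328), of which Hsd17b7, an enzyme of cholesterol synthesis, also stood 0.94 higher in the GCN2 KO Cold-labelled libraries than in WT Cold (limma adjusted p = 0.0725). Cidea was most like Swi5 (0.0358), Iscu (0.0415) and Pon3 (0.048), and Ppargc1b most like Tns2 (0.0763), Cyp4f17 (0.0921) and Pan2 (0.1). These likenesses are descriptions over 9 libraries with no test.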

How the data were processed

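The authors sequenced poly(A)-selected RNA. The submitters' processing notes name Trimmomatic 0.36, STAR 2.5.2b, featureCounts of Subread 1.5.2, DESeq2 and the build GRCm39. In each of 3 deposited tables the authors gave the signal of each gene, its reads scaled by a DESeq2 size factor that differs from table to table, beside their own log2 fold changes and p-values, which were not used. Columns from other samples numbered 0. Whole reads were recovered for 100% of values (tolerance 0.001). Libraries were mapped to groups by their codes and the tables in which they occur.

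limma 3.58.1 (R 4.3.3) with a mean-variance trend was fitted on log2(value + 1) to all genes of a table, with Benjamini-Hochberg adjustment, and was tested on simulated data. DESeq2 1.42.0 and edgeR 4.0.16 were run on the recovered reads. Other alternatives changed the pseudocount, the filter on low values, scaling, the fold threshold, which groups were fitted together and which library was left out. p-values measure only the spread between these libraries. Coordinates and exon lengths are from GENCODE M21 on GRCm38, found for 16900 of 16937 identifiers.

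The members and gene lists were chosen with earlier results of these data known, and lists share some genes. Named genes were the 6 members, Eif2ak4, every called gene of 5 lists plus the next largest differences up to 4 per list and comparison at a mean normalized count of at least 50, and the 3 genes most like each member. Pprc1, Elovl5, Elovl6, Xist, Ddx3y, Eif2s3y and the cell type markers fall outside that rule, and those named among them were chosen after their values were seen.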

Additional observations from a re-analysis of the deposited data

How the results depend on the processing

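Of the 6 genes, 4 were called in WT Cold against WT RT. This was 3 or 4 under the 13 alternative settings and 2 to 4 when 1 library was left out, with 2 without WT Cold library B and 2 without WT RT library A, where Ucp1 and Elovl3 dropped out. The log2 fold changes of Dio2 (3.47 to 3.86) and Ppargc1a (2.45 to 2.91) with 1 library left out stayed past both thresholds. In the GCN2 KO Cold-labelled libraries against WT RT, 4 or 5 genes were called under all settings. Between the cold groups, 0 were called in all fits except that without both cold libraries C, which called 1. Over all genes that comparison was the least stable. It called 42 genes, and 66 without a fold threshold, 209 by DESeq2, 6 by limma without a trend, 152 with all 3 groups in a single fit, 130 without both cold libraries C and 3 to 22 with 1 library left out. Without a fold threshold 4624 genes passed in WT Cold against WT RT and 5657 in the GCN2 KO Cold-labelled libraries against WT RT. The causes were not tested.

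Directions turned for differences near 0. Cidea in WT Cold against WT RT was -0.0138 when scaled to brown adipocyte markers. Ppargc1b was -0.0013 there without WT Cold library C and without both cold libraries C, with a range of -0.0013 to 0.29 with 1 library left out, and against WT RT in the GCN2 KO Cold-labelled libraries it was 0.00032 with all 3 groups in a single fit and -0.13 to 0.12 with 1 library left out. Between the cold groups, Ppargc1a was -0.0534 as CPM, -0.0126 as CPM without mitochondrial genes, -0.0354 scaled to brown adipocyte markers, -0.50 without both cold libraries C and -0.42 to 0.43 with 1 library left out. Dio2 was -0.0577 without both cold libraries C and -0.088 to 0.30 with 1 library left out. Elovl3 in WT Cold against WT RT had an adjusted p of 0.0541 from limma without a trend.

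Scaling moved the median of all genes, by -0.12 between the cold groups as CPM and by -0.20 in the GCN2 KO Cold-labelled libraries against WT RT. Scaled to brown adipocyte markers the shifts were -0.10, -0.22 and, in WT Cold against WT RT, -0.12. The share of called genes that were higher went from 36.7% to 25.8% in WT Cold against WT RT under that scaling. In the GCN2 KO Cold-labelled libraries against WT RT it went from 28.4% to 14.6%, and as CPM to 15.6%. Between the cold groups it was 23.8%, and 12.5% with all 3 groups in a single fit. No paired analysis was possible because the columns carry no replicate numbers. The settings with brown adipocyte markers and without both cold libraries C were chosen after seeing the data. The part of depth in the spread between libraries was not tested.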
